A study of Mus musculus with 11 samples.

Results

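The receptors for the neurotrophins and for the GDNF family of growth factors were examined in sympathetic ganglia of aged mice. The set held 8 of the 12393 genes on the array with a probe set of their own, chosen by name: Ntrk2, Ntrk3, Ngfr, Sort1, Ret, Gfra1, Gfra2 and Gfra3. Together they had 19 of the 20380 probe sets that the platform annotation assigned to a single gene. The tissue came from 6 arrays of male Apoe-deficient mice (apoE-/-) and 5 arrays of male wild-type mice, all 78 weeks old, on a C57BL strain and a normal chow diet. Laser capture microdissection isolated the ganglia. No label says which animal an array came from, so p-values reflect the spread among these arrays, part of which may be technical, and would be too small if arrays shared an animal. By its title the study asks how the diseased artery wall and peripheral nerves affect each other in atherosclerosis.

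Neurotrophins such as nerve growth factor bind Trk receptor tyrosine kinases and the unrelated receptor p75NTR, and developing sympathetic neurons need them to survive and to reach their targets. GDNF family ligands bind a GFRalpha co-receptor held at the membrane by a lipid anchor, and the complex then activates the kinase Ret. Ret and its artemin-binding co-receptor guide the migration and axon growth of young sympathetic neurons, and p75NTR and truncated TrkB are also made by glia.

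The labels were checked with Apoe itself. Its signal ran from 7.2 to 268.2 in Apoe-deficient ganglia and from 11830.3 to 19649.2 in wild-type ganglia, so each array lay on the side its label gives. Median signal per array ran from 164.4 to 188.6 in Apoe-deficient ganglia and from 163 to 182.35 in wild-type ganglia, and the number of arrays limits the precision. The arrays differed in the signal of their hybridisation controls, the labelled bacterial and phage RNAs added at a fixed amount. In the Apoe-deficient group, controls were low in replicates 2, 3 and 4, middle in replicate 5 and high in replicates 1 and 6. In the wild-type group they were middle in replicates 3, 4 and 5 and high in replicates 1 and 2. The poly-A controls, another set of added RNAs, were also lowest in Apoe-deficient replicates 2, 3 and 4. Their mean signal was 427.35, 1387.6 and 1146.35 there, and from 2797.08 to 6620.78 in the other arrays.

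Promoter windows are shown for Ntrk2, which had the smallest p of the 6 receptor genes above the filter, and for Ngfr, whose level moved with that of Ret across the arrays. They run from 250 bases before to 50 bases after the RefSeq gene start on GRCm38.p6, and 3 of the 8 genes matched the RefSeq promoter table. Capitals mark the GC box (GGGCGG or its reverse complement CCGCCC), a binding motif of Sp-family factors.
Ntrk2, chr13:58806319-58806618, plus strand: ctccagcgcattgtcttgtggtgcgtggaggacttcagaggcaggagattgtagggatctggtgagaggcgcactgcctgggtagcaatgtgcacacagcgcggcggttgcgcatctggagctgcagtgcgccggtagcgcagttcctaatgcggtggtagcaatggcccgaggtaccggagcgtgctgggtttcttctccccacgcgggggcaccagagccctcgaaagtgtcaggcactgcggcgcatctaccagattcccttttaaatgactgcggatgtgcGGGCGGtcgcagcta
Ngfr, chr11:95587649-95587948, minus strand: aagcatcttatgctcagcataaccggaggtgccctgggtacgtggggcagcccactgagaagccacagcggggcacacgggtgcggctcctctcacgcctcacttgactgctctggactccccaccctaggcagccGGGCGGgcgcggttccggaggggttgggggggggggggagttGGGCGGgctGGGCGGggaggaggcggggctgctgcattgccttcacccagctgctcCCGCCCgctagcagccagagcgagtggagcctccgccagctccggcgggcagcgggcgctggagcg
The Ngfr window held 4 GC boxes and 71.7% G and C, and the Ntrk2 window 1 GC box and 61.3% G and C. Of 32851 promoter windows of 300 bases, 35.7% held a GC box on either strand, and the median G and C content was 52.7%. Neither window held a CCAAT box (CCAAT, 37.4% of windows) or a TATA box (TATAAA, 13.6%), and overlaps with other motifs were not removed. Ngfr had 2 E-boxes (CANNTG) and Ntrk2 had 1, against 72.3% of windows with at least 1. These matches describe the letters only.

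No receptor gene passed the test. Of the 8 genes, 6 had a probe set above the filter on low values, which lay near a signal of 110, while Ntrk3 and Gfra1 did not. The test was limma on log2(signal + 16) after quantile normalisation, with Benjamini-Hochberg adjustment over all 8433 genes tested and a threshold of 0.05. It called 0 of the 6 genes, and 1 of the 6 had an unadjusted p under 0.05. Over all genes the call rate was 1.93% (1.26% higher and 0.676% lower in Apoe-deficient ganglia), and 20.3% had an unadjusted p under 0.05. The 6 log2 differences were all below 0, with a median of -0.31, where 57.0% of all genes were below 0 with a median of -0.04. Across all 19 probe sets, including those below the filter, 11 were below 0 (57.9%, against 52.6% of all probe sets) and the median was -0.15. A test of all 22626 probe sets without the filter called 0 of the 19 (0.734% of all probe sets were called, 0.526% higher and 0.208% lower, and 16% had an unadjusted p under 0.05, as did 2 of the 19). In bulk tissue, fewer cells of a type and less RNA per cell cannot be told apart.

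**Figure D1:**
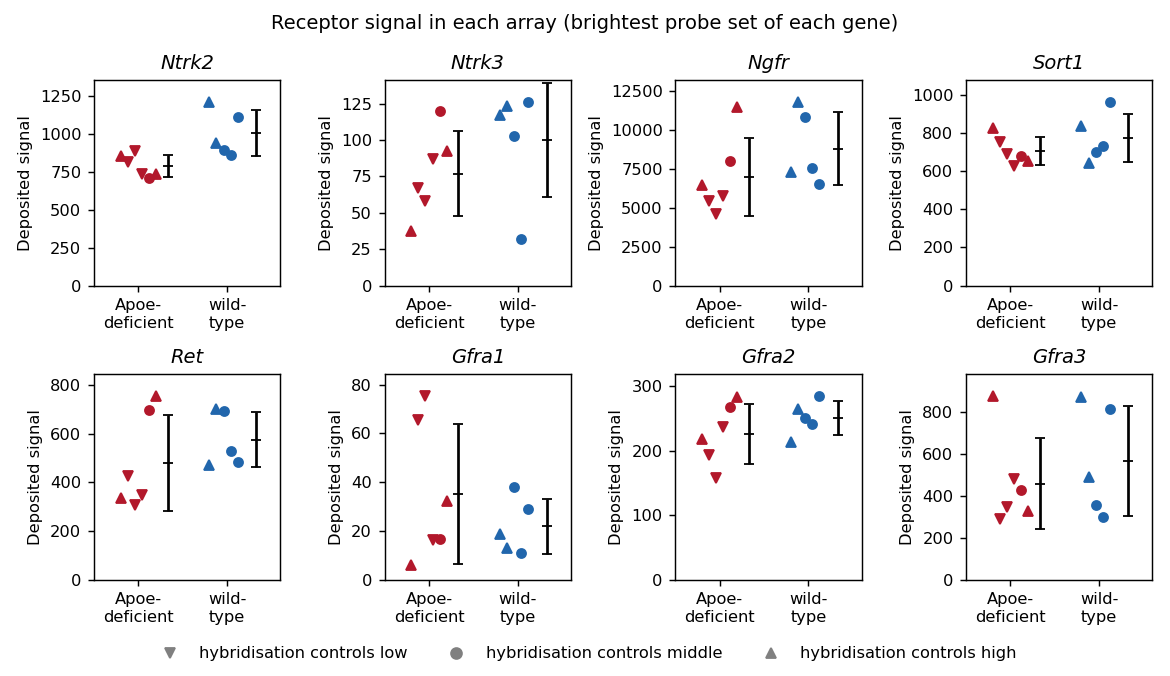
Deposited signal (linear scale) of the brightest probe set of each receptor gene in the 6 Apoe-deficient and 5 wild-type arrays. Each point is an array, its shape gives the level of the hybridisation controls, and bars are mean ± SD. Ntrk2 was the receptor whose groups came closest to separating, and Ntrk3 and Gfra1 lay near or below the filter value of about 110.

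Ntrk2 encodes TrkB, the kinase receptor for brain-derived neurotrophic factor. Its brightest probe set had a signal of 706.2 at the lowest, 775.4 at the median and 887.2 at the highest in Apoe-deficient ganglia, against 1210.1, 941.5, 892.2, 863.5 and 1113.4 in wild-type replicates 1 to 5. The signals overlapped only between the highest Apoe-deficient array, replicate 3, and the lowest wild-type array, replicate 4. After normalisation the groups did not overlap, which was true of 2.96% of all genes tested. The margin was very narrow, with log2 values of 9.789 in Apoe-deficient replicate 1 and 9.793 in wild-type replicate 4. The mean signal was 789 ± 72.8 in Apoe-deficient ganglia (SD, n = 6) and 1004 ± 150.5 in wild-type ganglia (SD, n = 5). The log2 difference was -0.36 (SE 0.11, 95% interval -0.60 to -0.11) and did not pass (limma adjusted p = 0.119). It lay between -0.41 and -0.29 when any 1 array was left out.

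The second Ntrk2 probe set gave almost no signal. It averaged 10.7 ± 4.43 in Apoe-deficient ganglia and 9.78 ± 3.40 in wild-type ganglia (SD, n = 6 and 5), with a log2 difference of 0.09. Ntrk2 is transcribed into a full-length kinase form and shorter forms without the kinase, and the annotation used does not say which transcripts each probe set reads.

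Ntrk3 encodes TrkC, which early sympathetic precursors carry. All 4 of its probe sets lay below the filter. The brightest had a signal of 37.3, 77.05 and 119.8 (lowest, median, highest) in Apoe-deficient ganglia, against 117.1, 123.5, 102.5, 31.7 and 126.2 in wild-type replicates 1 to 5. Wild-type replicate 4 was the lowest of all 11 arrays, and the groups overlapped (log2 difference -0.23, SE 0.28).

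The dimmest Ntrk3 probe set did separate the groups. Its signal was 2.2, 6.85 and 12.2 (lowest, median, highest) in Apoe-deficient ganglia, against 20.1, 15.8, 28.1, 22.3 and 34.4 in wild-type replicates 1 to 5. Every wild-type array lay above every Apoe-deficient array, as for 2.11% of all probe sets. The log2 difference was -0.72 (SE 0.16), and it did not pass (limma adjusted p = 0.0689 over all probe sets). It passed in 2 of 22 alternatives. These were median centring in place of quantile normalisation (-0.76, limma adjusted p = 0.048) and array weights (-0.76, limma adjusted p = 0.04). Blocking on hybridisation control level gave -0.64 (limma adjusted p = 0.306), and leaving out the low-control arrays gave -0.70 (limma adjusted p = 0.336). Within the high-control arrays, 2 against 2, it was -0.35 (limma adjusted p = 0.798). With a pseudocount of 1 the difference was -1.54 and with 64 it was -0.28, so its size depends on the pseudocount at these low signals. It lay between -0.81 and -0.64 when any 1 array was left out, without passing. The other 2 Ntrk3 probe sets differed by -0.02 and 0.29, so the 4 did not move together.

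Ngfr encodes p75NTR, which binds all neurotrophins. Its brightest probe set had a signal of 4585.6, 6083.85 and 11494.7 (lowest, median, highest) in Apoe-deficient ganglia, against 7280.3, 11791.4, 10856.0, 7526.1 and 6520.8 in wild-type replicates 1 to 5. Of the Apoe-deficient arrays, replicates 5 and 6 lay inside the wild-type range and the other 4 below it. The mean was 6945 ± 2510 in Apoe-deficient ganglia (SD, n = 6) and 8795 ± 2361 in wild-type ganglia (SD, n = 5), a log2 difference of -0.35 (SE 0.19, 95% interval -0.76 to 0.07, limma adjusted p = 0.323). The other 2 Ngfr probe sets, both above the filter, gave 0.13 and 0.20, in the opposite direction. The mean of the 3 probe sets gave -0.0047. The 3 probe sets nevertheless tracked each other across arrays, with correlations of group-centred values from 0.60 to 0.85 over 11 arrays that share scaling and normalisation.

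Sort1 encodes sortilin, the partner of p75NTR in binding the uncleaved proneurotrophins and a sorting receptor of the Golgi. Its brightest probe set had a signal of 623.6, 683.5 and 825.0 (lowest, median, highest) in Apoe-deficient ganglia, against 834.9, 643.5, 697.1, 730.7 and 961.2 in wild-type replicates 1 to 5. The groups overlapped over most of their range. The log2 difference was -0.15 (SE 0.12, 95% interval -0.41 to 0.11, limma adjusted p = 0.493), and it was -0.069 without wild-type replicate 5. The other 2 Sort1 probe sets gave 0.15 and -0.27, and their group-centred values correlated at 0.86 with each other but at 0.21 and 0.30 with the brightest.

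**Figure D2:**
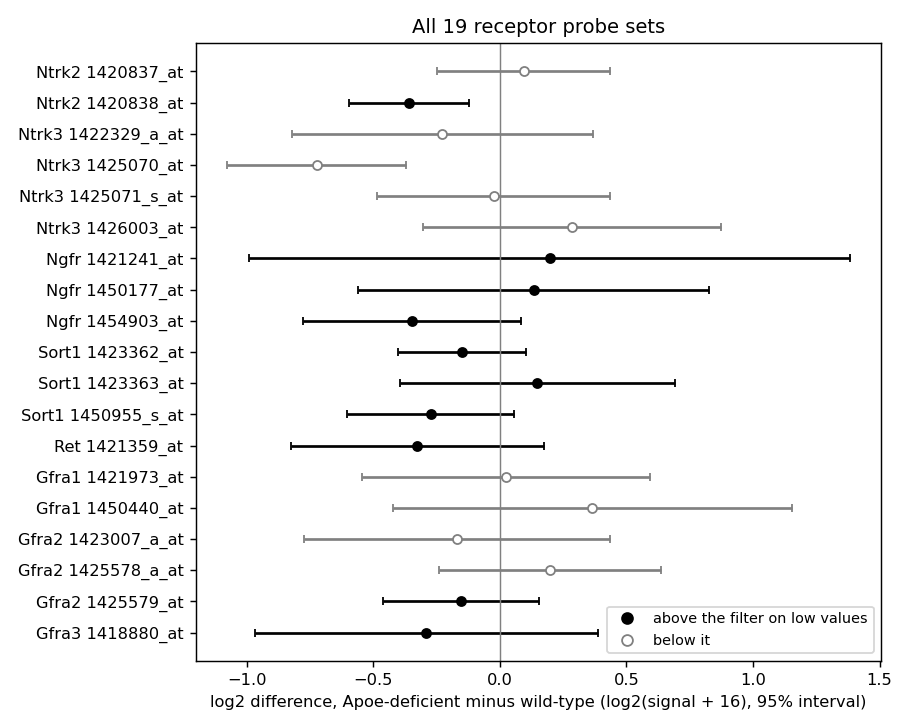
log2 difference (Apoe-deficient minus wild-type) of each of the 19 receptor probe sets with its 95% interval. Filled points passed the filter on low values. The intervals of 2 probe sets, 1 each of Ntrk2 and Ntrk3, exclude 0 before adjustment, and probe sets of the same gene lie on both sides of 0 for Ntrk2, Ntrk3, Ngfr, Sort1 and Gfra2.

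Ret, the signalling kinase shared by all GDNF family ligands, was read by 1 probe set. Its signal was 305.4, 386.8 and 754.6 (lowest, median, highest) in Apoe-deficient ganglia, against 469.4, 701.5, 692.4, 530.2 and 482.0 in wild-type replicates 1 to 5. Apoe-deficient replicates 5 (698.0) and 6 (754.6) stood with the highest wild-type arrays, and the other 4 Apoe-deficient arrays, from 305.4 to 424.5, lay below all wild-type arrays. The mean was 478 ± 197.4 in Apoe-deficient ganglia (SD, n = 6) and 575 ± 113.6 in wild-type ganglia (SD, n = 5), a log2 difference of -0.33 (SE 0.23, 95% interval -0.81 to 0.16, limma adjusted p = 0.42).

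Among the co-receptors, Gfra3, which binds artemin, had a signal of 290.1, 386.4 and 874.1 (lowest, median, highest) in Apoe-deficient ganglia, against 869.6, 486.7, 354.7, 296.7 and 811.8 in wild-type replicates 1 to 5. High arrays occurred in both groups (Apoe-deficient array 1, wild-type arrays 1 and 5) and made its spread wide, and the groups overlapped fully at the low end. The log2 difference was -0.29 (SE 0.31, 95% interval -0.94 to 0.36, limma adjusted p = 0.612). Single arrays moved it strongly, to -0.50 without Apoe-deficient replicate 1, -0.47 without wild-type replicate 4, -0.18 without Apoe-deficient replicate 2, -0.13 without wild-type replicate 5 and -0.11 without wild-type replicate 1. Gfra2, which binds neurturin, had 157.1, 226.9 and 283.9 in Apoe-deficient ganglia, against 213.9, 264.0, 250.4, 241.4 and 284.8 in wild-type replicates 1 to 5. Apoe-deficient replicates 2 and 3 lay below all wild-type arrays and the rest overlapped (log2 difference -0.15, SE 0.14, limma adjusted p = 0.547). Without Apoe-deficient replicate 3 the difference was -0.077. Its other 2 probe sets, below the filter, gave -0.17 and 0.20.

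Gfra1, the co-receptor for GDNF itself, lay below the filter in both of its probe sets. The brighter one had 5.8, 24.4 and 75.3 in Apoe-deficient ganglia, against 18.7, 12.8, 37.8, 11.0 and 29.1 in wild-type replicates 1 to 5. The groups overlapped, with log2 differences of 0.36 (SE 0.37) and 0.03 (SE 0.26) for the 2 probe sets.

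Ret and Ngfr were low in the 3 Apoe-deficient arrays with low hybridisation controls. No wild-type array had low controls, so at that level control signal and genotype cannot be told apart. Ret averaged 360 in these 3 arrays, and it had 698.0 in the Apoe-deficient array with middle controls and 334.3 and 754.6 in those with high controls. In wild-type arrays Ret averaged 568 at the middle and 585 at the high level. Ngfr averaged 5245 in the 3 low arrays, and had 8013.9 in the middle and 6428.9 and 11494.7 in the high Apoe-deficient arrays. In wild-type arrays Ngfr averaged 8301 at the middle and 9536 at the high level. The part of the control level in these values was not tested beyond the fits that follow. Blocking on control level, the log2 difference was 0.02 for Ret and -0.09 for Ngfr. Without the 3 low arrays it was -0.01 for Ret and -0.10 for Ngfr. Within the high level, 2 arrays against 2, it was -0.18 for both genes. Ntrk2 kept its size in the same fits, at -0.43 with the block, -0.38 without the low arrays and -0.42 within the high level (limma adjusted p = 0.23, 0.384 and 0.574). Gfra2 gave 0.03, 0.0020 and 0.04, Gfra3 gave -0.21, -0.09 and -0.30, and Sort1 gave -0.10, -0.10 and -0.0016.

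**Figure D3:**
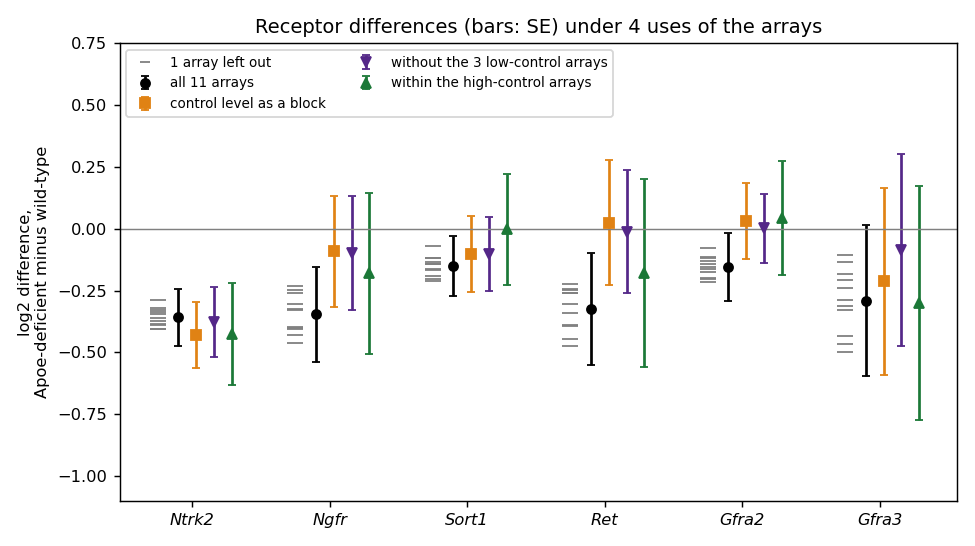
log2 difference (Apoe-deficient minus wild-type) of the 6 tested receptor genes with all 11 arrays, blocked on hybridisation control level, without the 3 low-control arrays and within the high-control arrays. Error bars are SE, and grey dashes leave out 1 array each. Ntrk2 stays between -0.43 and -0.29 in the values drawn, while Ret and Ngfr lie nearer 0 when the control level is taken into account.

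Across the arrays, the brightest Ngfr probe set and the Ret probe set rose and fell together. The other Ngfr probe sets were not set against Ret. After the group means were removed, Pearson's r was 0.92 over 11 arrays (permutation p = 0.00011, adjusted p = 0.00308 over 28 receptor pairs). Spearman's rho was 0.79 (permutation p = 0.00201, adjusted p = 0.0563), so the pair passed by Pearson's r only. Without the 2 arrays farthest from the Ngfr median r was 0.93, and within the 6 Apoe-deficient arrays it was 0.95. With the control level removed as well r was 0.91 (permutation adjusted p = 0.0106). That permutation shuffled arrays within genotype but across control levels, so its p does not hold the level fixed. Without the 3 low arrays r was 0.90 (permutation adjusted p = 0.0606). The control levels hold 3 or 4 arrays each, too few for a value within each. None of the other 27 pairs passed by either coefficient. Among the genes tested other than the receptors, 150 exceeded r = 0.8 with Ngfr and 139 with Ret. Ntrk2 had positive coefficients with Gfra3 (r = 0.72, rho = 0.71) and Sort1 (r = 0.71, rho = 0.71) and negative ones with Ret (r = -0.61, rho = -0.55) and Ngfr (r = -0.62, rho = -0.55), with adjusted permutation p from 0.21 upwards.

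**Figure D4:**
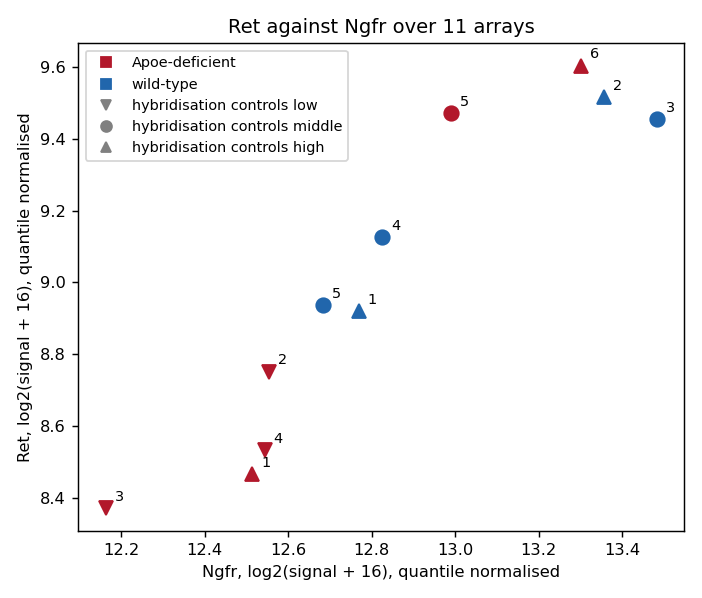
Ret against Ngfr in each array, both as quantile normalised log2(signal + 16), numbered by replicate and shaped by hybridisation control level. The points form a rising band from Apoe-deficient array 3 at the low end to Apoe-deficient array 6 with wild-type arrays 2 and 3 at the high end.

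The mix of neurons and glia in the captured tissue was read through marker lists. Sympathetic neuron genes gave high signals in both groups. The noradrenaline synthesis genes Th and Dbh had deposited signals of 9686.1 to 16933.3 and 7993.0 to 15447.8 in Apoe-deficient ganglia, against 12518.2 to 18058.1 and 12541.9 to 18660.1 in wild-type ganglia. Both were lowest in Apoe-deficient replicates 2, 3 and 4, the low-control arrays (Th 9686.1 to 11280.3, Dbh 7993.0 to 10241.6). After normalisation the log2 difference was 0.05 for Th and -0.20 for Dbh. The part of the control level in these signals was not tested. The summed signal of 9 noradrenergic genes ran from 44806 to 93076 in Apoe-deficient ganglia and from 64012 to 98312 in wild-type ganglia, with 0 of 9 called. That of 8 general neuron genes ran from 54936 to 90151 in Apoe-deficient ganglia and from 69467 to 90016 in wild-type ganglia, with 0 of 8 called. That of 8 satellite glia genes ran from 11982 to 22596 and from 11437 to 19261 in the same order, with 0 of 8 called, and that of 4 myelin genes from 12819 to 31577 and from 13479 to 20714, with 0 of 4 called.

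No relation between a receptor and a neuron or glia score passed the test after adjustment. Group-centred Ret had r = -0.84 and rho = -0.80 with the satellite glia score (permutation adjusted p = 0.0998 and 0.115 over 24 relations, r = -0.73 without the 2 farthest arrays) and r = 0.70 and rho = 0.66 with the general neuron score (permutation adjusted p = 0.136 and 0.163). Ngfr had r = -0.76 and rho = -0.69 with satellite glia (permutation adjusted p = 0.118 and 0.163) and r = 0.66 and rho = 0.71 with general neurons (permutation adjusted p = 0.136 and 0.163). Sort1 (r = 0.75, rho = 0.76) and Ntrk2 (r = 0.66, rho = 0.67) had positive coefficients with satellite glia (permutation adjusted p = 0.118 and 0.136 for r, 0.161 and 0.163 for rho). The part of cell mix in the receptor values was not tested.

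Some markers of other cell types differed between the groups. Over all genes tested, 1.26% were called higher and 0.676% lower, and the marker calls were not followed through the alternative fits. Macrophage genes were called higher in 3 of 6, of which Csf1r passed narrowly (limma adjusted p = 0.0498). The summed signal of the 6 was 3958 to 6058 in Apoe-deficient ganglia against 2988 to 3940 in wild-type ganglia. Mast cell genes were called higher in 3 of 4, with sums of 1387 to 4031 in Apoe-deficient ganglia against 624.5 to 1420 in wild-type ganglia. Of 6 sensory neuron genes with a probe set, 3 were tested and 2 of them, Isl2 and Avil, were called lower. The sum of the 3 tested genes, Isl2, Avil and Runx1, was 2633 to 4053 in Apoe-deficient ganglia and 4646 to 6132 in wild-type ganglia. Most of that sum was Avil, which averaged 3134 in Apoe-deficient and 4806 in wild-type ganglia. Below the filter, the nociceptor genes Scn10a and P2rx3 averaged at most 12.0 in either group. Runx3, also below it, went the other way, with 38.6 in Apoe-deficient and 26.4 in wild-type ganglia. Ntrk2 is also a gene of sensory neurons. Whether such cells were in the captured tissue, and any part of them in the Ntrk2 value, was not tested. Fibroblast genes had no call in 5, but all 5 differences were above 0 with a median of 0.35, and their sum was 9711 to 15561 in Apoe-deficient ganglia against 6948 to 11400 in wild-type ganglia. The part of fibroblasts in the receptor values was not tested. Endothelial (0 of 4) and white adipocyte genes (0 of 3) had no call, and 1 of 2 B and plasma cell genes, Jchain, was higher. Adipocyte sums ran from 2830 to 22897 in Apoe-deficient ganglia and from 9242 to 29747 in wild-type ganglia.

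The genes whose group-centred values over 11 arrays were most like each receptor, among the genes tested, were as follows, as a description without a test. Ngfr was nearest to Bean1 (r = 0.98) and Rexo2 (0.96), and 150 genes exceeded 0.8. Ret was nearest to Pold4 (0.93), a DNA polymerase subunit gene, and Neurl1a (0.93), with 139 genes above 0.8. Sort1 was nearest to Csf1r (0.97), the macrophage growth factor receptor gene, and Nectin2 (0.92), and Ntrk2 to Mrpl45 (0.90) and the serotonin transporter gene Slc6a4 (0.89). Gfra3 was nearest to Olfml2b (0.95) and Mmab (0.92), and Gfra2 to Nhej1 (0.94) and Anxa6 (0.91). Ntrk3 was nearest to Map4 (0.93), a microtubule-associated protein gene, and Lrig1 (0.91), and Gfra1 to Jade1 (0.85) and Foxn2 (0.85), both receptors at low signal. All arrays share their scaling and normalisation, and many genes follow the same few arrays.

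The ligands were barely measured. Of 9 ligand genes 5 had a probe set and 0 passed the filter. Bdnf, the TrkB ligand, averaged 13.9 ± 2.46 in Apoe-deficient ganglia and 32.1 ± 20.1 in wild-type ganglia (SD, n = 6 and 5), and Gdnf 6.78 ± 3.06 and 13.6 ± 3.40 in the same order. Artn averaged 23.1 ± 25.3 in Apoe-deficient ganglia and 14.5 ± 11.3 in wild-type ganglia, Nrtn 81.1 ± 35.1 and 71.9 ± 52.0, and Pspn 87.0 ± 16.3 and 126.4 ± 35.6. None of the 5 passed in the test without the filter (limma adjusted p from 0.288 to 0.744).

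Among 8 tested genes of other receptors and co-receptors, 1 was called lower and 0 higher, where 0.676% of all genes tested were called lower. The median log2 difference was -0.18, against -0.04 over all genes tested. The called gene was Ncam1, the neural cell adhesion molecule that can serve GDNF as a receptor beside GFRalpha. Its signal was 3010.6 to 3785.0 in Apoe-deficient ganglia, against 5888.2, 5044.9, 4507.0, 3940.5 and 4356.0 in wild-type replicates 1 to 5, a log2 difference of -0.45 (SE 0.11, limma adjusted p = 0.0458). Every deposited wild-type signal lay above every Apoe-deficient one, but after normalisation the groups overlapped. The call was weak: it held in 3 of 11 fits without 1 array, those leaving out Apoe-deficient array 1, Apoe-deficient array 5 or wild-type array 4, and was lost in the other 8 (limma adjusted p = 0.0582 to 0.124). It was also lost with median centring, no filter or no intensity trend (limma adjusted p = 0.0521, 0.0611 and 0.074), and the mean of its probe sets gave -0.21 (limma adjusted p = 0.332), so that it was called in 8 of 24 alternatives. The 5 other Ncam1 probe sets differed by -0.14 to 0.20. Blocking on control level gave -0.42 (limma adjusted p = 0.219). Lingo1, a partner of p75NTR and the Nogo receptor, gave -0.53 (limma adjusted p = 0.154), and the fourth co-receptor gene, Gfra4, gave -0.21.

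In the Ras-MAPK and PI3K-Akt pathways, which carry the signal of both receptor families, 1 of 17 tested genes was called higher and 1 lower. The median was -0.23, and an unadjusted p under 0.05 was found for 7 of the 17. Over all genes tested, 1.93% were called, the median was -0.04 and 20.3% had an unadjusted p under 0.05. Pik3r2, a regulatory subunit gene of PI3K, fell to a mean signal of 254 ± 63.8 in Apoe-deficient ganglia (SD, n = 6), against 449 ± 67.6 in wild-type ganglia (SD, n = 5). Pik3r2 differed by -0.80 on the log2 scale (SE 0.15, limma adjusted p = 0.0164). Deposited signals overlapped only between Apoe-deficient replicate 5 (356.6) and wild-type replicate 4 (347.2). After normalisation the groups lay apart, as they did for 2.96% of all genes tested. Leaving out wild-type replicate 1 removed the Pik3r2 call (limma adjusted p = 0.0518). Rap1a, a small GTPase gene of the sustained MAPK branch, averaged 1705 ± 271 in Apoe-deficient ganglia and 1182 ± 160 in wild-type ganglia (log2 difference 0.49, SE 0.12, limma adjusted p = 0.0494). It kept its call in 4 of 11 fits without 1 array, those leaving out Apoe-deficient array 1, 5 or 6 or wild-type array 4, and lost it in the other 7 (limma adjusted p = 0.0914 to 0.136). Over all 24 alternatives it was called in 8, and it was also lost with the deposited scaling, median centring, no filter, the mean of probe sets or no intensity trend (limma adjusted p = 0.0525, 0.079, 0.0561, 0.0635 and 0.063). A second Rap1a probe set gave 0.31. Blocking on control level, Pik3r2 gave -0.58 (limma adjusted p = 0.187) and Rap1a 0.32 (limma adjusted p = 0.325), and without the 3 low arrays -0.57 and 0.31.

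No gene was called in the other lists. These were receptor adaptors (0 of 15, median -0.08), p75NTR processing and effectors (0 of 17, median -0.03), ligand processing and receptor turnover (0 of 18, median -0.03) and neurotrophin-responsive genes (0 of 9, median -0.05). An unadjusted p under 0.05 was found for 5, 3, 5 and 1 of them, in that order, against 20.3% of all genes tested. The smallest p belonged to the adaptor genes Shc1 (-0.51) and Grb10 (0.51), the gamma-secretase gene Aph1a (-0.64) and the GTPase gene Rhoa (0.27). In the last lists it belonged to Dusp6 (0.67), an ERK phosphatase gene, Furin (-0.44), a convertase that cleaves proneurotrophins, Fos (0.68) and Dbh (-0.20). Their limma adjusted p ran from 0.0922 for Dusp6 to 0.248 for Dbh.

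**Figure D5:**
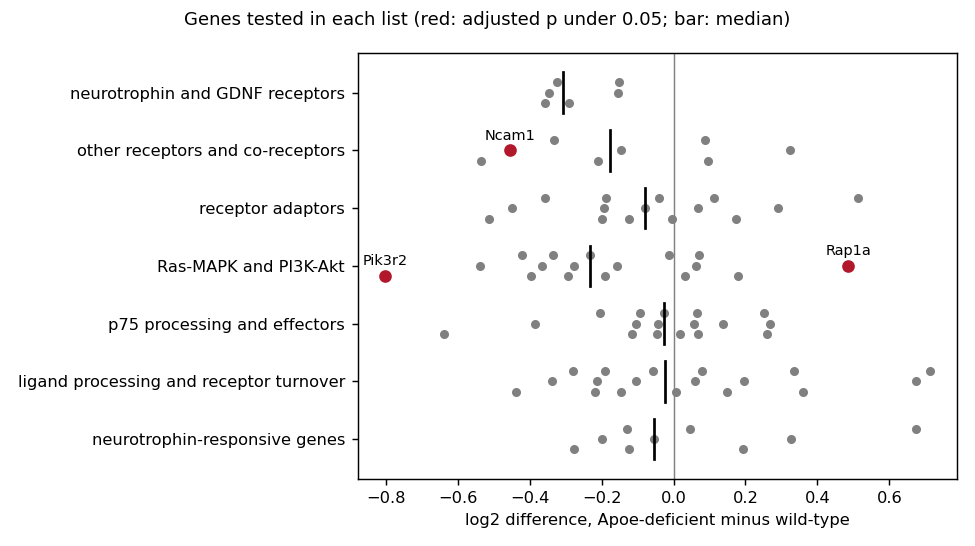
log2 difference (Apoe-deficient minus wild-type) of each tested gene of the receptor set and of 6 lists around it. Red points passed limma's adjusted threshold, and black bars are list medians. The called genes are Ncam1 and Pik3r2, both lower, and Rap1a, higher.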

How the data were processed

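Total RNA from laser-captured sympathetic ganglia was measured on 11 Affymetrix arrays, 6 Apoe-deficient and 5 wild-type, grouped by the titles. Each deposited value is a probe set's intensity on a linear scale, made by the authors with GCOS 1.4 per the submitters' processing notes. How detection was called, and what followed, is not stated in the labels. Of 22690 probe sets, 64 controls were left out, 20380 carried 1 gene symbol, 691 several and 1555 none. The platform annotation is from GEO, and 0 symbols needed updating against RefSeq GRCm38.p6.

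Signals were taken to log2(signal + 16), which understates changes of low genes, and quantile normalised. A probe set was kept where 5 or more arrays exceeded the 40th percentile of the whole matrix (all arrays where fewer were used), and each gene was represented by its kept probe set of highest mean. limma 3.58.1 in R 4.3.3 (intensity trend, two-sided, Benjamini-Hochberg over all genes, threshold 0.05) tested the genotype. The same model without the filter tested all 22626 probe sets. The fit was tested on simulated data. Receptor pairs and marker scores were correlated on group-centred values, with 100000 permutations within groups (two-sided). The correlations with marker scores were added after the data were seen. Hybridisation control level was set at the widest gaps between arrays. Figures used matplotlib 3.10.9.

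Genes named were the receptors, the ligands, Apoe, called genes of each pathway list and its 2 smallest p, and the 2 genes most like each receptor; Gfra4, Th, the sensory neuron, macrophage and other marker genes and the second Ntrk3 probe set were named after their values were seen. Members and lists were chosen with earlier results of these data known. Same-numbered arrays had correlations of deviations from -0.18 to 0.15, so numbers were not taken as pairs. Alternatives covered scaling, pseudocount, filter, probe set rule, variance model, weights, arrays left out, replicate number and control level.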

Additional observations from a re-analysis of the deposited data

Results flagged for a closer look

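Of 38 sets of values (19 probe sets in each genotype), 3 held an array that stood apart from its group by Dixon's criterion, where chance gives about 1 in 20. For the dimmest Ngfr probe set, wild-type replicate 1 had a log2 value of 5.65, with the next array at 7.53. For the brightest Ntrk3 probe set, wild-type replicate 4 had 5.71, with the next at 6.81. For 1 dimmer Sort1 probe set, wild-type replicate 1 had 6.84, with the next at 7.48. Each was the lowest of its group, and each lay near or below the filter value of 6.98 or at low signal (37.1, 31.7 and 104.4).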

How the results depend on the processing

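The count of receptor genes called was 0 under all 24 alternatives run, and that of receptor probe sets was 0 except for 1, the dimmest Ntrk3 probe set, with median centring and with array weights. Over all genes the 163 calls became 668 with array weights, 45 with the control level as a block, 24 without the 3 low-control arrays, 4 within the high-control arrays and 75 to 267 without 1 array. Over all probe sets the 166 calls became 359, 61, 46, 1 and 69 to 257 in the same order. With the replicate number as a block the counts were 185 genes and 125 probe sets, and no receptor was called. The correlated pairs numbered 1 by Pearson's r, 0 by Spearman's rho, 0 without the 3 low-control arrays, 1 whichever array was left out and 3 with the control level removed (Ngfr-Ret, Ntrk2-Sort1 and Sort1-Ret). The permutations behind the last count ran across control levels, so that count does not hold the level fixed.

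Of 144 alternative differences of receptor genes 4 turned the sign, as did 31 of 286 of the other receptor probe sets, and none of these was called. Probe sets of a gene are ordered from bright to dim. With the deposited scaling only these were the dimmer Gfra1 probe set at -0.043. With median centring these were the dimmer Gfra1 probe set at -0.033. With array weights these were the second Sort1 probe set at -0.059. With the replicate number as a block these were the second Ntrk3 probe set at 0.0035, the dimmest Ngfr probe set at -0.046, the second Ngfr probe set at -0.083 and the dimmer Gfra1 probe set at -0.12. With the control level as a block these were Ret at 0.024, Gfra2 at 0.032, the second Ntrk3 probe set at 0.080, the dimmer Gfra1 probe set at -0.092, the brighter Gfra1 probe set at -0.10 and the second Gfra2 probe set at 0.17. Without the 3 low-control arrays these were Gfra2 at 0.0020, the second Ntrk3 probe set at 0.13, the brighter Gfra1 probe set at -0.17 and the second Gfra2 probe set at 0.28. Within the high-control arrays these were Gfra2 at 0.045, the second Ntrk3 probe set at 0.14, the third Ntrk3 probe set at -0.59, the dimmer Gfra1 probe set at -0.24 and the second Gfra2 probe set at 0.22. Over fits without 1 array the sign turned within the ranges the dimmest Ngfr probe set -0.23 to 0.53, the dimmer Gfra1 probe set -0.15 to 0.16, the second Gfra2 probe set -0.33 to 0.028, the second Sort1 probe set -0.050 to 0.27, the second Ntrk3 probe set -0.16 to 0.074 and the second Ngfr probe set -0.084 to 0.37. The cause was not tested. The dim probe sets of Ntrk3 and Gfra1 limit what can be seen of these receptors.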
